A study of Mus musculus with 2 samples.

Results

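The noncoding transcripts of the Bach2 locus were followed in mouse spleen. They were chosen by name: every annotated transcript of Bach2os and Bach2it1, and every assembled transcript that the authors assigned to Bach2. This gave 16 of 32012 transcripts, 4 of 15172 annotated and 12 of 16840 assembled ones. One group was spleen cells of mice with collagen-induced arthritis (CIA), in which injected type II collagen sets off an autoimmune joint disease. The other was spleen cells of untreated healthy mice. Both titles state spleen cells and day 40, but by their treatment label the CIA mice were killed at day 42. The labels used here do not give strain, sex, age or the number of mice per library. Each group had 1 library, so the differences below have no replicate behind them, the conditions could not be tested against each other, and each comparison is of 2 libraries.

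BACH2 is a transcription repressor of the basic leucine zipper family that binds DNA with small MAF proteins. In B cells it holds back the plasma cell programme, in part through repression of Prdm1, and is needed for class switching. In T cells it restrains effector genes and favours naive and regulatory T cells. The gene is long and mostly intron, and RNA from its introns can come from unspliced Bach2 RNA or from separate noncoding transcripts, which these values cannot tell apart. Bach2 mRNA was not analysed here.

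In GRCm38 the longest coding Bach2 transcript runs from 32238804 to 32586104 on the plus strand of chromosome 4, a span of 347.3 kb with 7 exons and 6 introns. The coding sequence starts in exon 4. Bach2it1 (ENSMUST00000133451, 32251761 to 32265835, plus strand) has 4 exons and 481 bases and lies whole within intron 1. Bach2os is antisense, on the minus strand, and has 3 annotated isoforms near the 3′ end of the gene. Its isoform ENSMUST00000126225 (32559680 to 32571662) has 5 exons and 1661 bases, of which 396 bases (23.8%) face Bach2 exons. Its isoforms ENSMUST00000136149, of 687 bases, and ENSMUST00000149084, of 234 bases, were listed at 0 in both libraries. They share a first junction that differs from that of the isoform with a measured level.

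The first splice junctions of the Bach2os isoforms and the 3 junctions of Bach2it1 are shown because they are what separates these spliced transcripts from unspliced intronic RNA. They are from the GENCODE M21 transcript sequences, 5′ to 3′, with the last bases of the upstream exon in lower case and the first bases of the next exon in capitals.
Bach2os ENSMUST00000126225, junction 1: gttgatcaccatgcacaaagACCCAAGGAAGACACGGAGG
Bach2os ENSMUST00000136149 and ENSMUST00000149084, junction 1: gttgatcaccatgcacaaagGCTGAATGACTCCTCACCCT
Bach2it1, junction 1: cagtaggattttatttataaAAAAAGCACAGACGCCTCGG
Bach2it1, junction 2: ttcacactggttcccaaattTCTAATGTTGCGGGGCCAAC
Bach2it1, junction 3: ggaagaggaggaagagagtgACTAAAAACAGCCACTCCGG
All Bach2os isoforms leave the first exon at the same base and differ in where they enter the next one. The 2 junctions removed 6029 and 5836 bases. The Bach2it1 junctions removed 412, 11323 and 1859 bases, so its level was measured over a small part of a long span.

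RefSeq (GRCm38.p6) gives 1 start of Bach2, at exon 3, and 1 of Bach2os, and no entry matched Bach2it1. The 250 bases before each start are shown because the first lies at the end of intron 2 and the second precedes the antisense transcript. Whether either start bears on the values below was not tested. The capitals in the Bach2 sequence mark its last 2 bases, the AG that ends intron 2 in the longer transcripts.
Bach2, chr4:32417185-32417434, plus strand: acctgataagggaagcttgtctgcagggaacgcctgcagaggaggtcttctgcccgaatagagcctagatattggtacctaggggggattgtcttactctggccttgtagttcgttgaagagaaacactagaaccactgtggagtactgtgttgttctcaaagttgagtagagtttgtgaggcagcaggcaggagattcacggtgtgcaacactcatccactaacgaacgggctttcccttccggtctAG
Bach2os, chr4:32571663-32571912, minus strand: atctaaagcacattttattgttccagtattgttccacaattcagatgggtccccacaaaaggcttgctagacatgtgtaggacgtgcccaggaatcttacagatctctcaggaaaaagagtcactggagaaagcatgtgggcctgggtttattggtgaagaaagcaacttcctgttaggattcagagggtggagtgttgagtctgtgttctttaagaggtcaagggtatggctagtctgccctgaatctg
The letters TGAGTCA, the core of the element that BACH2 and small MAF proteins bind, were searched on both strands. They were in neither window and in none of the 4 annotated transcripts, and 4.46% of 32817 RefSeq windows of this length held them. At so low a share the absence says little, and the bases before exon 1 of Bach2 were not searched.

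All 14 members with a measured level stood higher in the CIA library than in the healthy library. Of all transcripts with 0.5 FPKM or more in either library, 68.4% of annotated and 63.3% of assembled ones also stood higher in the CIA library. FPKM counts fragments per kilobase of transcript per 1000000 fragments, and values are given with the CIA library first. Bach2os stood at 2.81 against 1.19 FPKM, a ratio of 2.37 and a log2 ratio of 1.18 with the pseudocount of 0.1 FPKM. The strand setting of the libraries was not given, so whether RNA of the Bach2 strand is part of the Bach2os value cannot be told. Bach2it1 stood at 6.62 against 3.42 FPKM, a ratio of 1.94 and a log2 ratio of 0.93. So 1 of these 2 annotated transcripts was past the size rule of 2-fold or more, where 15.7% of all annotated transcripts past the filter (0.5 FPKM or more in either library, 3068 transcripts) were 2-fold higher and 6.13% were 2-fold lower. The whole set of annotated transcripts had a median log2 ratio of 0.30. More cells that express a gene and more RNA per cell cannot be told apart in bulk RNA.

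Of the 12 assembled transcripts, 11 lay inside Bach2 introns by the authors' class code and 1 was coded as antisense to an exon. All 12 passed the filter, and none overlapped an exon of GENCODE M21. They ran from 599 to 23330 bases, 9 had 1 exon and 3 had more. On the CIA side they stood between 6.62 and 22.8 FPKM with a median of 12.9, and on the healthy side between 3.54 and 9.41 FPKM with a median of 5.60. Of the 12, 9 were higher by 2-fold or more on the CIA side, none was lower, and the other 3 had ratios of 1.80 to 1.87. The same share over all assembled transcripts that passed (16773) was 17.2% 2-fold higher and 11.1% 2-fold lower. The median log2 ratio of the 12 was 1.18, against 0.26 for all assembled transcripts. After centring on the median of all annotated transcripts, 3 of the 12 were still 2-fold higher, and after centring on that of all assembled transcripts 4 were.

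**Figure D1:**
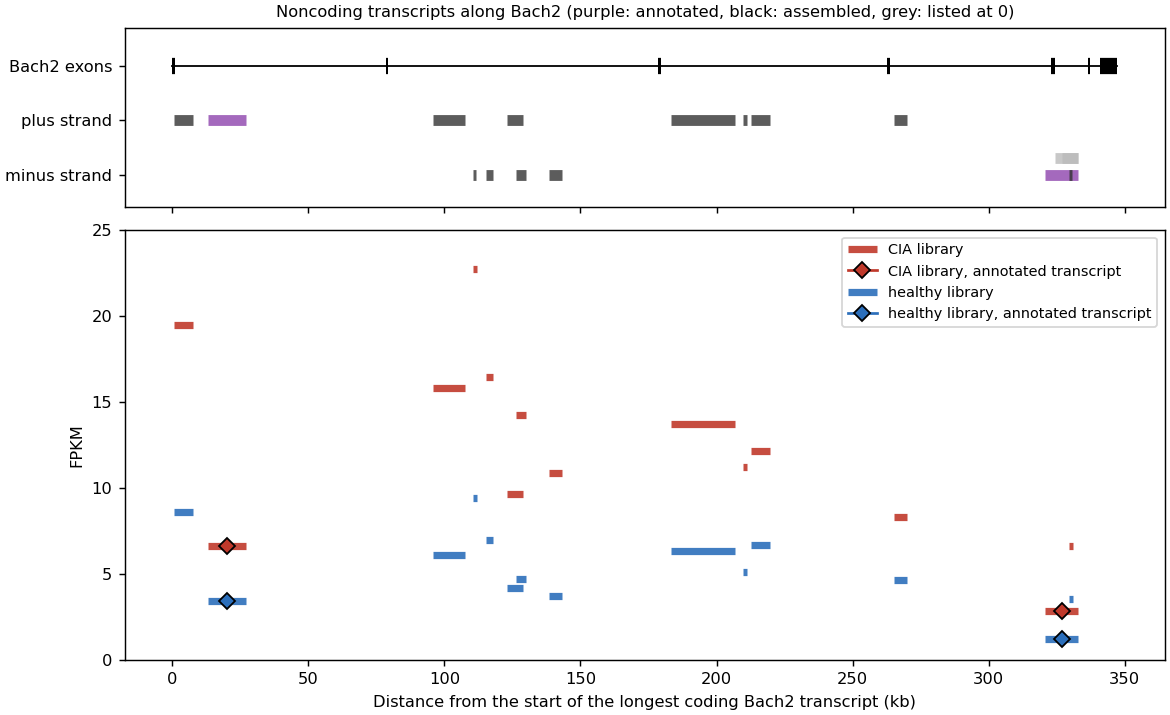
Upper panel: Bach2 exons and the noncoding transcripts by strand; lower panel: FPKM of each expressed transcript in the CIA and healthy libraries (1 each), drawn over its span, against the distance in kb from the start of the longest coding Bach2 transcript. CIA values lie above healthy values at every position, and the assembled transcripts run from 19.5 against 8.62 FPKM at the 5′ end to 6.62 against 3.54 FPKM near the 3′ end.

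Intron 1, of 78.1 kb, held 1 assembled transcript, MSTRG.25738.1 (32239256 to 32246427, plus strand, 7172 bases), which begins 0.452 kb from the gene start. It stood at 19.5 against 8.62 FPKM, which is a log2 ratio of 1.17. Bach2it1 follows it in the same intron on the same strand, at a lower level in each library (6.62 and 3.42 FPKM).

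Intron 2, of 100.1 kb, held 6 assembled transcripts, which together covered 26.7% of it, and all 6 were higher by 2-fold or more on the CIA side. MSTRG.25742.1 (32334501 to 32346234, plus strand, 3 exons) stood at 15.8 against 6.07 FPKM. MSTRG.25743.1 (32349298 to 32350118, minus strand) had the highest level of the locus in both libraries, at 22.8 against 9.41 FPKM. MSTRG.25744.1 (32354238 to 32356645, minus strand) stood at 16.4 against 6.94 FPKM. These 3 neighbours had log2 ratios of 1.37, 1.27 and 1.23. Farther along, MSTRG.25745.1 (32361910 to 32367683, plus strand, 2 exons) stood at 9.67 against 4.18 FPKM, which is a log2 ratio of 1.19. MSTRG.25746.1 (32365210 to 32368888, minus strand), which overlaps it by 2474 bases on the other strand, stood at 14.3 against 4.69 FPKM. MSTRG.25747.1 (32377337 to 32382117, minus strand) stood at 10.9 against 3.73 FPKM. These last 2 had the highest log2 ratios of the locus, 1.58 and 1.52, ratios of 3.04 and 2.92. The 4 minus-strand transcripts of intron 2 had log2 ratios of 1.23 to 1.58 and the 2 plus-strand ones 1.19 and 1.37, so the strands overlapped.

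Intron 3, of 84.0 kb, held 3 assembled transcripts, all on the plus strand, which spanned 37.3% of it. MSTRG.25748.1 (32422140 to 32445469), 1 exon of 23330 bases and the longest of the locus, stood at 13.7 against 6.34 FPKM, which is a log2 ratio of 1.10. MSTRG.25749.1 (32448608 to 32449897) stood at 11.2 against 5.13 FPKM, which is a log2 ratio of 1.11. MSTRG.25750.1 (32451567 to 32458320), with 2 exons and 599 bases, stood at 12.2 against 6.68 FPKM, which is a log2 ratio of 0.85. The single-exon transcripts of this intron were thus just past 2-fold and the spliced one was below it.

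Toward the 3′ end, MSTRG.25751.1 in intron 4 (32504030 to 32508927, plus strand) stood at 8.34 against 4.62 FPKM, the lowest log2 ratio of the locus at 0.84. MSTRG.25754.1 in intron 5 (32568177 to 32569358, minus strand) stood at 6.62 against 3.54 FPKM, which is a log2 ratio of 0.88. It has the class code for an antisense overlap with an exon, yet lies 4810 bases from the nearest Bach2 exon of GENCODE M21. It sits on the strand of Bach2os, inside the first intron of ENSMUST00000126225, whose own log2 ratio was 1.18. Intron 6 held no assembled transcript.

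**Figure D2:**
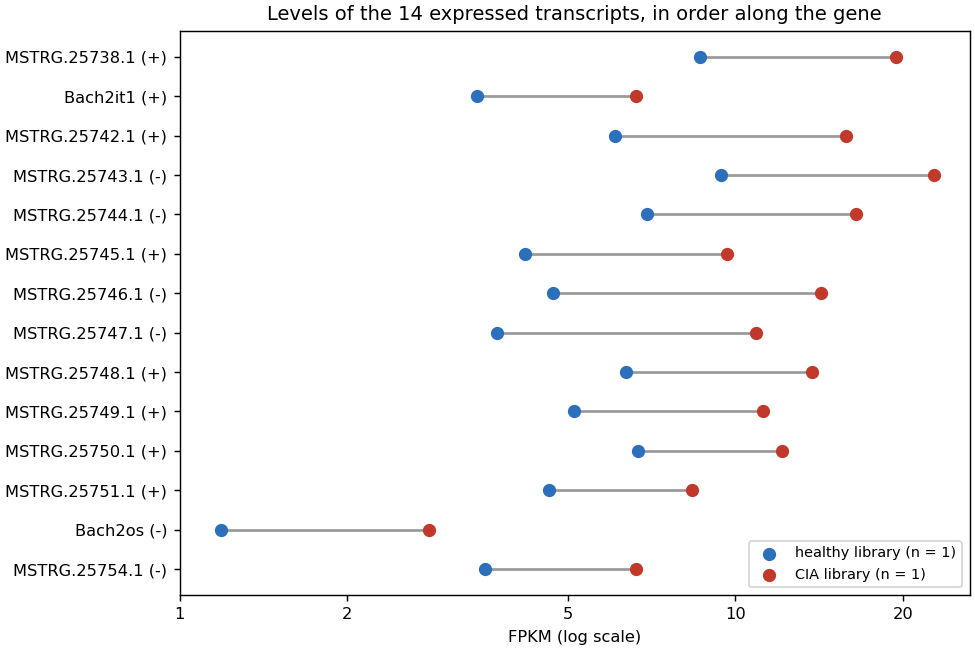
FPKM (log scale) of the 14 expressed transcripts in the healthy and CIA libraries (1 library each), in order along the gene with the strand in brackets; a line joins the 2 values. In each of the 14 the CIA value is the higher one, and Bach2os is the lowest transcript in both libraries. The CIA value is also the higher one in 68.4% of all annotated and 63.3% of all assembled transcripts past the filter.

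By position, the 7 assembled transcripts with midpoints in the first part of the gene, up to 173.7 kb from the start, had log2 ratios of 1.17 to 1.58 and a median of 1.27. The 5 in the second part had log2 ratios of 0.84 to 1.11 and a median of 0.88, so these members did not overlap. The annotated transcripts went the other way, with Bach2it1 at 0.93 in the first part and Bach2os at 1.18 in the second. With them included, the difference between the medians of the parts went from 0.38 to 0.26. Spearman's rho across the 12 assembled transcripts was -0.66 between log2 ratio and distance from the start. For the level and the distance it was -0.81 in the CIA library and -0.58 in the healthy library. Between log2 ratio and the mean FPKM of the 2 libraries it was 0.42. These describe transcripts of 1 gene measured in the same 2 libraries, with no test, and position was not separated from level.

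**Figure D3:**
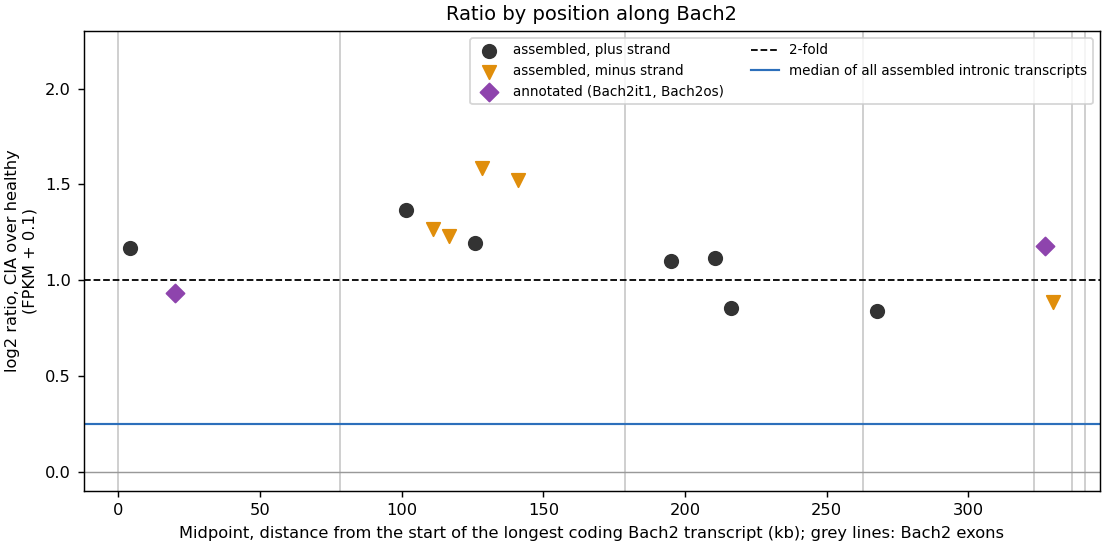
Log2 ratio of CIA over healthy FPKM (pseudocount 0.1) against the midpoint of each transcript in kb from the start of the longest coding Bach2 transcript, by strand and source; grey verticals are Bach2 exons. Assembled transcripts of introns 1 and 2 lie at 1.17 to 1.58 and those of introns 3 to 5 at 0.84 to 1.11, all above the intronic median of 0.25 (blue line).

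Weighted by length, the introns kept the same order, but introns 1, 4 and 5 held 1 assembled transcript each, whose ratio weighting cannot change. The product of FPKM and length in kb, an estimate of fragments per 1000000, summed to 398.2 in the CIA library and 152.4 in the healthy library over intron 2, a ratio of 2.61. Over intron 3 it was 341.7 against 158.6, a ratio of 2.16, of which MSTRG.25748.1 alone gave 320.0 and 148.0. In intron 1 the ratio was 2.26, in intron 4 it was 1.80 and in intron 5 it was 1.87. Over all 12 assembled transcripts, 67.2 kb in sum, the product was 928.3 against 399.6 and the length-weighted mean 13.8 against 5.95 FPKM, a ratio of 2.32.

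The Bach2 transcripts were abundant for intronic RNA. Among the 12603 assembled intronic transcripts, the 11 of Bach2 stood between percentiles 95.4 and 99.7 of FPKM in the CIA library and between 83.4 and 98.1 in the healthy library. Of the intronic transcripts, 12558 passed the filter, and of those 15.6% were 2-fold higher and 10.3% were 2-fold lower, and the median log2 ratio was 0.25. Large ratios are more frequent among low transcripts, so the 1392 other intronic transcripts with a mean of at least 5 FPKM were also taken. Of these, 109 (7.83%) were 2-fold higher and 9 were 2-fold lower, with a median of 0.28. In 75.8% of these the CIA value was the higher one. Of the 11 intronic Bach2 transcripts, 9 were 2-fold higher. The authors' assembly gave a strand to all 8 single-exon intronic Bach2 transcripts, to 19.1% of single-exon intronic transcripts in all and to 65.7% of those with a mean of at least 5 FPKM.

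**Figure D4:**
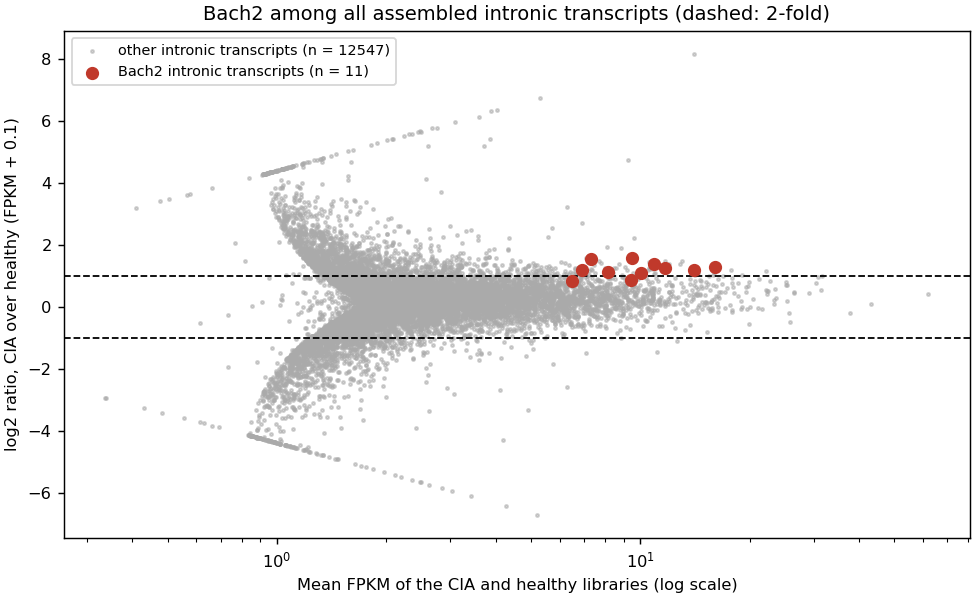
Log2 ratio of CIA over healthy FPKM (pseudocount 0.1) against the mean FPKM of both libraries (log scale) for assembled intronic transcripts past the filter, with the 11 of Bach2 in red and 2-fold marked by dashed lines. The Bach2 transcripts lie at 0.84 to 1.58, at levels where few others reach 2-fold.

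Among 213 host genes with at least 10 intronic transcripts past the filter, Bach2 was number 7 by the median log2 ratio, at 1.19. By the median level it was number 1 in the CIA library (13.7 FPKM) and number 4 in the healthy library (6.07 FPKM). The hosts just above it were Adgrl3 (median log2 ratio 1.26), an adhesion receptor gene, and Rbms3 (1.25), an RNA-binding protein gene, with median CIA levels of 2.44 and 2.03 FPKM. Just below it were Aff3 (1.17), a nuclear factor gene of B cells, and Adam23 (1.15), with median CIA levels of 7.47 and 4.08 FPKM. Of the 13 hosts with a median of at least 5 FPKM in the CIA library, Bach2 had the highest median log2 ratio. These hosts were picked by the CIA level, which also enters the ratio, so the pick favours hosts that are higher in the CIA library. Aff3, for example, had a healthy median of 3.61 FPKM. The order among the 13 is therefore only a description. With a pseudocount of 1 FPKM it was number 1 of the hosts, and with at least 5 transcripts per host it was number 22 of 636.

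The Bach2 transcripts were also alike in ratio. Their lowest log2 ratio, 0.84, was the highest such minimum of the 213 hosts, followed by 0.60 at Lef1. Their range of 0.75 was the 9th narrowest of all hosts and the 4th narrowest of the 13 picked by their CIA level. A range and a minimum also depend on the number of transcripts, which was 11 at Bach2 and up to 62 at other hosts. Of the comparison loci, Ebf1 and Pax5 had wider ranges and Satb1 a narrower one. Ebf1, which encodes a B lineage factor, had 9 intronic transcripts with log2 ratios of -5.44 to 5.51 and a median of 0.91. Pax5, another B lineage factor gene, had 5 with a range of -4.67 to 1.37 and a median of 0.83. In Ebf1 and Pax5 the lowest values, and in Ebf1 also the highest, belonged to transcripts listed at 0 in 1 library, such as MSTRG.5425.2 at 0 against 4.24 FPKM. Satb1, a chromatin organizer of T cells, had only 2, at 0.37 and 0.98, a range of 0.61.

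**Figure D5:**
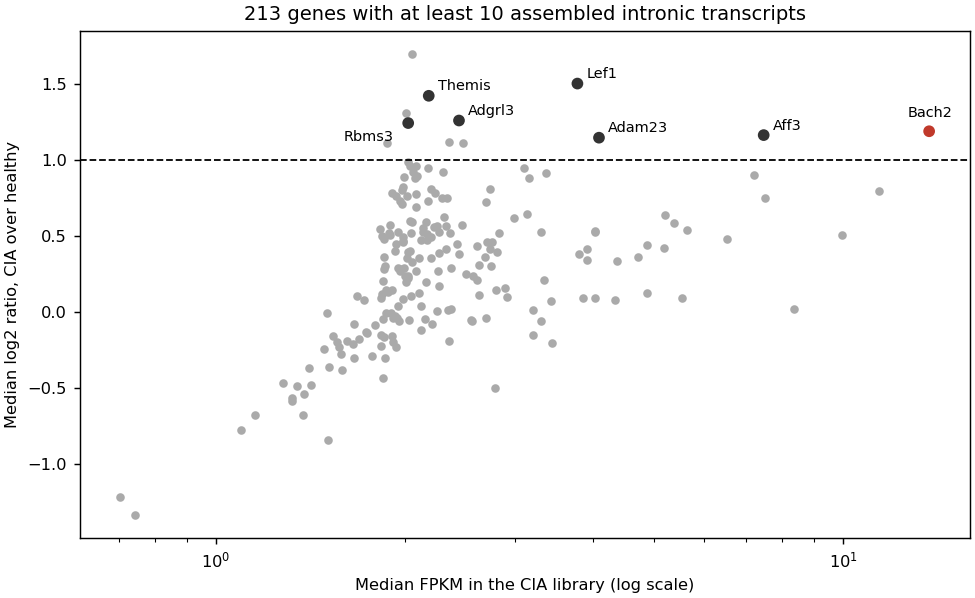
Median log2 ratio of CIA over healthy FPKM against the median FPKM in the CIA library (log scale) for the 213 genes with at least 10 assembled intronic transcripts; the dashed line is 2-fold. Bach2 (red) has the highest level, 13.7 FPKM, and a median log2 ratio of 1.19.

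Genes known as partners, co-factors or targets of BACH2 were then followed through their own assembled transcripts, from a list of 36 genes of which 12 had any. Over these 55 transcripts, 19 were 2-fold higher and 2 were 2-fold lower, and the median log2 ratio was 0.75, beside the 17.2% higher and the median of 0.26 of all assembled transcripts. Lef1, which encodes a transcription factor of naive T cells, gave 12 of the 19, with a median of 1.51 over 13 transcripts at 2.74 to 5.80 against 0.807 to 1.94 FPKM. Without Lef1, 7 of 42 were higher. Ikzf3, which encodes the lymphoid zinc finger factor Aiolos, had log2 ratios of -0.34, 1.04 and 5.19, the last from a transcript at 7.33 against 0.104 FPKM. The corepressor gene Ncor1 had a median of 0.42 over 3 transcripts with none at 2-fold. Il7r, the interleukin 7 receptor gene, had a median of 0.65 with 1 of 3 at 2-fold.

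Prdm1, the plasma cell regulator that BACH2 represses, had 1 transcript, at 2.56 against 1.84 FPKM, which is a log2 ratio of 0.46. Il2ra, a receptor gene of activated and regulatory T cells, had 2, at 0.755 against 1.87 and 1.79 against 1.71 FPKM. Among the rest, Runx1 had 3 of 12 transcripts 2-fold higher and a median of 0.76. Foxo1 stood at 11.1 against 5.95 FPKM and Pou2f1 at 4.03 against 3.33 FPKM. Of the other 24 listed genes, the small MAF genes, Bach1, Bcl6 and Irf4 among them, none had a transcript in the tables.

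Since Bach2 is a lymphocyte gene, assembled transcripts at marker genes of spleen cell types were set beside these values. Their counts are to be read against the 17.2% of all assembled transcripts that were 2-fold higher and the 11.1% that were 2-fold lower. At T cell genes, 52 of 66 transcripts were 2-fold higher and none was lower, with a median log2 ratio of 1.34 and sums of 233.3 against 100.3 FPKM. They came from 9 of 20 listed genes, among them Themis (median 1.43), Prkcq (1.49) and Skap1 (1.24). Lef1 (1.51), Il7r (0.65) and Satb1 (0.67) are also among them and on the list of BACH2 partners and targets. Pax5 is likewise on that list and on the B cell list, so the lists share transcripts. At B cell genes, 29 of 73 transcripts were higher and 4 lower, with a median of 0.83 and sums of 733.5 against 423.2 FPKM, from 10 of 20 genes. Of these, 17 of the 29 were at Aff3, and without it 12 of 52 were higher. At erythroid genes none of 13 was 2-fold apart, with a median of -0.35 and sums of 104.5 against 133.9 FPKM.

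The remaining lists held few transcripts. Regulatory T cell genes had a median of 0.31 over 19 transcripts, 17 of them at Ikzf2, with 1 lower and sums of 48.3 against 38.4 FPKM. Dividing cell genes had 5 transcripts with a median of -0.81, 2 of them 2-fold lower, and sums of 10.7 against 16.1 FPKM. Myeloid genes had 2 transcripts, summing to 3.43 against 7.85 FPKM, with that of Lyz2 listed at 0 against 5.04 FPKM. The lower sum rests on it, as the other, at Spi1, stood at 3.43 against 2.81 FPKM. The only plasma cell gene with a transcript was Prdm1, above. The defining markers Cd3e, Cd4, Cd8a, Ms4a1, Cd79a and Foxp3 had no assembled transcript. The Bach2 median of 1.18 thus lay between those of the B cell and T cell lists. The part of cell composition in the Bach2 values was not tested.

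In the authors' deposited table, 9 of the 12 assembled Bach2 transcripts and Bach2os are marked significant. Each member so marked has a deposited ratio of 2 or more, and each unmarked one has a lower ratio. Among the members the mark thus picks the same transcripts as the size rule. The p-values there run from 0.0277 for MSTRG.25746.1 to 0.275 for MSTRG.25751.1, with 2 of the 12 below 0.05, and the q-values from 0.357 to 1. In the authors' deposited table Bach2os has a p of 0.101 and a q of 0.739, and Bach2it1 a p of 0.231 and a q of 0.981. These compare the 2 libraries and hold no spread between mice.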

How the data were processed

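Total RNA of spleen cells, depleted of ribosomal RNA per the labels' protocols, was sequenced from CIA mice and from healthy mice, with 1 library each. Per the file headers, the authors deposited 1 FPKM value for each transcript and library, where 0.0001 stands for 0 and was read as 0 here. StringTie, a transcript assembler, is named in the submitters' processing notes. The aligner, the strand setting and the authors' test were not given in the sources used here. Per the file headers, the ratio (fold), its log2, the p-value and the q-value were deposited by the authors, and p and q are quoted only as theirs. The coordinates of all 15172 annotated transcripts equalled those in GENCODE M21, so GRCm38 is named as the build. In the CIA column 2 damaged cells, of transcripts outside the Bach2 locus, were restored from the deposited ratio within a relative tolerance of 0.0001.

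Transcripts were taken by gene name. The log2 ratio was log2((CIA FPKM + 0.1)/(healthy FPKM + 0.1)), which understates ratios of low transcripts. Transcripts that reached 0.5 FPKM in 1 of the libraries were kept, and a 2-fold size rule stood in for a test, since 1 library per group allows none. FPKM keeps no counts, so the depth is unknown and no counting interval can be given. Positions were measured from the start of the longest coding Bach2 transcript of GENCODE M21. Host genes, the genes whose introns hold assembled transcripts, were ranked by the median log2 ratio where at least 10 such transcripts passed the filter.

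The named transcripts were all members; from the list of BACH2 partners and targets, the 3 highest and the 3 lowest genes by median among those with at least 3 transcripts; and the 2 hosts above and the 2 below Bach2. Of the genes this rule names, 1 is not reported here. Ebf1, Pax5 and Satb1 were fixed as comparison loci. Themis, Runx1, Prdm1, Il2ra, Foxo1, Pou2f1, Spi1, Skap1, Prkcq, Lyz2 and the neighbours of Bach2 were chosen after their values were seen. The members and lists were chosen with earlier results of these data known. Pseudocount, filter, centring, fold rule, gene split and host minimum were varied. The software was Python 3.11.15 with pandas 2.3.3, numpy 2.4.6, matplotlib 3.10.9 and scipy 1.17.1.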

Additional observations from a re-analysis of the deposited data

How the results depend on the processing

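No paired analysis was possible because there was only 1 library in each group. Of 77 values recomputed under other settings for 11 results, 69 stayed within 1.5 times the reported value, 8 moved farther and none changed sign. Part of the 69 could not move, as every assembled Bach2 transcript passed each filter and centring leaves places and differences unchanged. Counts and places cannot change sign. The median log2 ratio of the assembled Bach2 transcripts stayed between 0.88 and 1.19 under every setting run. Centring on the annotated median, or on the assembled median, took the count of assembled Bach2 transcripts at least 2-fold higher from 9 to 3, or 4, and the median of the BACH2 partner and target list from 0.75 to 0.45, or 0.49. Centring subtracts the same amount from every transcript, so it leaves differences within the locus unchanged. Under a 4-fold rule 0 were higher. The place of Bach2 among hosts was 1 with a pseudocount of 1 FPKM and 22 with at least 5 transcripts per host, where more hosts are ranked. With at least 20 it could not be given, as Bach2 has 11. Without Lef1 the partner list had 7 in place of 19 transcripts 2-fold higher. Chosen after seeing the data were the level of 5 FPKM, the list without Lef1, the B cell list without Aff3, the places by level, minimum and range, the annotated transcripts in the split by position, and the neighbours.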

Other observations

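Other noncoding transcripts within 1 Mb of Bach2 were looked at after its values were known. Past the filter were 11, 10 assembled and 1 annotated, at up to 4.44 FPKM on the CIA side. Values are given with the CIA library first. Of these, 1 was 2-fold higher and 2 were 2-fold lower, and the median log2 ratio was 0.14. Over all assembled transcripts 17.2% were 2-fold higher and 11.1% 2-fold lower, from which counts this small cannot be told apart. The nearest, an intronic transcript of Casp8ap2 38.7 kb from Bach2, stood at 4.44 against 3.45 FPKM. An intronic transcript of Map3k7, 254.9 kb away, stood at 2.77 against 1.60 FPKM, and one of Rragd, 398.0 kb away, at 2.37 against 0.430 FPKM. The lowest, MSTRG.25727.1, was listed at 0 against 1.76 FPKM. All 11 stood below the lowest assembled Bach2 transcript of the CIA library, at 6.62 FPKM, and were thus of lower level than the transcripts they are set beside.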
